A study of Mus musculus with 9 samples.

Results

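The genes described here encode 10 secreted peptides of the gut and nervous system: Gast, Cck, Npy, Nts, Vip, Penk, Tac1, Cartpt, Gal and Adcyap1. They are peptide genes known to be low or absent in normal adult beta cells, and each was found by its symbol among the 46316 genes of the count table. Where a gene had several transcript rows, the row with the highest total was used. All 10 were found. RNA of pancreatic islets was sequenced in 3 libraries of db/db mice that received imeglimin together with metformin, 3 from untreated db/db mice and 3 from untreated db/+ mice. Db/db mice carry a loss-of-function allele of the leptin receptor on both chromosomes in every cell, and obesity and diabetes follow; db/+ mice have one such allele and stay lean. Imeglimin and metformin are oral glucose-lowering drugs, and no group received only one of them. The sources used here give no dose, duration, age or count of mice per library, nor do they say that libraries of a group came from separate mice. The p-values therefore measure only the spread between these libraries, which may be technical.

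Peptide hormones are made as long precursors that enter the secretory pathway, are cut by prohormone convertases and trimmed, and in many cases receive a C-terminal amide before they are stored in granules. Gastrin and cholecystokinin share their amidated C-terminus and act on a shared receptor family; gastrin also appears in the fetal pancreas. Vasoactive intestinal polypeptide (VIP) and its relative PACAP, the product of Adcyap1, are released by parasympathetic nerves in the pancreas and raise cyclic AMP in beta cells. Galanin and neuropeptide Y are released by sympathetic nerves and lower insulin secretion.

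Levels are given as CPM, TMM-scaled counts relative to library size, and errors on them are SD over 3 libraries. Errors on log2 fold changes are standard errors. A gene was called where edgeR's quasi-likelihood test gave a Benjamini-Hochberg adjusted p under 0.05 over all 16811 genes that passed a filter on low counts, and adjusted p-values are from that test where no other tool is named. Libraries held 10292668 to 15281810 counts over all genes, so 1 count was worth about 0.1 CPM or less. The hormone genes that define islets (Ins1, Ins2, Iapp, Gcg, Sst and Ppy) were all present, with a summed level of 219862 to 243887 CPM in treated db/db, 176537 to 252076 CPM in untreated db/db and 274533 to 465605 CPM in db/+ libraries. Untreated db/db replicate 1 was the richest of its group in lymphocyte and acinar markers. Its 12 lymphocyte markers summed to 260 CPM, against 40.2 and 34.2 CPM in untreated replicates 2 and 3. Its 9 acinar markers summed to 1769 CPM, against 210 and 1008 CPM there. Untreated replicate 3 had the highest duct sum of the group (1515 CPM, against 827 and 799 CPM in replicates 1 and 2). It also had the highest stellate sum (320 CPM, against 179 and 99 CPM).

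Of the 10 genes, 8 passed the filter on low counts, and Nts and Adcyap1 did not. Only Npy reached the filter's level in all 3 db/+ libraries. The other 7 passed through the db/db libraries alone, Cartpt reaching it in 2 db/+ libraries, Vip and Tac1 in 1 and Gast, Cck, Penk and Gal in 0, so the filter partly fixes that they differ and the counts below are a description. Between untreated db/db and db/+ islets 7 of the 8 were called higher and 1 lower, in a comparison where 63.2% of all tested genes were called, 31.3% higher and 31.9% lower. Between treated db/db and db/+ islets 6 were called higher and 0 lower, where 65.1% of tested genes were called, 32.7% higher and 32.4% lower. The 7 tested at an unadjusted p under 0.05 in that comparison include Npy, and DESeq2 called 6 higher and 1 lower. Between treated and untreated db/db islets 0 were called in either direction by edgeR or by DESeq2, 1 of the 8 had an unadjusted p under 0.05, and 0.184% of tested genes were called, 0.00595% higher and 0.178% lower. The median log2 fold changes over the 8 were 3.28 for treated db/db over db/+ islets (0.016 over all tested genes), 3.35 for untreated db/db over db/+ islets (0.024 over all tested genes) and 0.14 for treated over untreated db/db islets (0.070 over all tested genes). The comparisons share libraries and are not independent. In bulk libraries more cells of a type and more RNA per cell cannot be told apart.

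**Figure D1:**
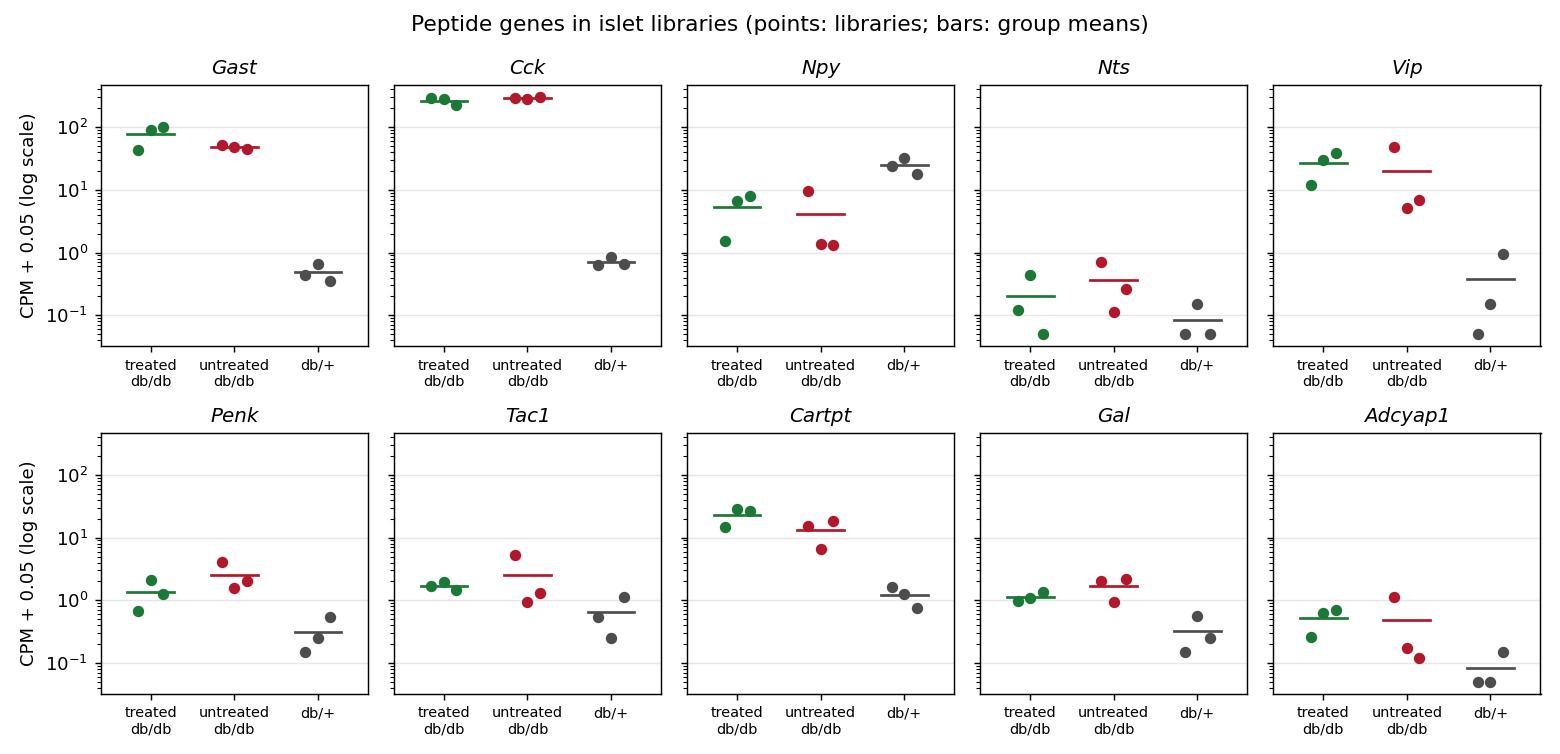
Level of each peptide gene in the 9 islet libraries, as CPM + 0.05 on a log axis, with the bar at the group mean. Cck and Gast lay between 43.6 and 305 CPM in all 6 db/db libraries and under 1 CPM in the db/+ libraries, whereas Npy was highest in db/+ libraries and Vip, Npy and Adcyap1 were split within both db/db groups.

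The gut hormones Cck and Gast were the most abundant of these genes in db/db islets and nearly silent in db/+ islets. Cck encodes cholecystokinin, which intestinal I cells release to empty the gallbladder and to drive pancreatic enzyme secretion. It stood at 293, 277 and 227 CPM in treated db/db libraries, 289, 278 and 305 CPM in untreated db/db libraries, and 0.594, 0.816 and 0.596 CPM in db/+ libraries. All 6 db/db libraries were thus within a factor of 1.34 of each other and far above the db/+ libraries, where the gene still had 6 to 8 reads per library. The log2 fold change was 8.75 ± 0.19 for untreated db/db over db/+ islets (adjusted p = 2.44e-11) and 8.62 ± 0.18 for treated db/db over db/+ islets (adjusted p = 2.93e-11). For treated over untreated db/db islets it was -0.13 ± 0.11 (adjusted p = 0.546). Cck overlaps the non-coding gene Gm38661 in the RefSeq annotation of GRCm38, and the sources used here do not say whether the counting used strand.

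Gast encodes gastrin, the hormone of antral G cells that stimulates gastric acid secretion. It stood at 43.6, 90.6 and 102 CPM in treated db/db libraries, 52, 48.2 and 44.5 CPM in untreated db/db libraries, and 0.396, 0.612 and 0.298 CPM in db/+ libraries. Every db/db library lay above every db/+ library, while the treated group was split: replicates 2 and 3 were above all untreated db/db libraries and replicate 1 below them all. Its log2 fold change was 6.77 ± 0.50 for untreated db/db over db/+ islets (adjusted p = 8.2e-06) and 7.47 ± 0.49 for treated db/db over db/+ islets (adjusted p = 3.33e-06). For treated over untreated db/db islets it was 0.71 ± 0.27 with an unadjusted p = 0.0332 and an adjusted p = 0.248. Without treated replicate 1 that difference was 1 on the log2 scale with an adjusted p = 0.0195; over all alternatives the adjusted p ranged from 0.0195 to 0.6. Cck and Gast together made up 79.7% to 95.2% of the counts of the 10 genes in db/db libraries, and 3.61% to 3.98% in db/+ libraries.

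Cartpt, Vip and Penk were the other genes more than 8-fold higher in untreated db/db islets, against db/+ islets, though at lower levels and with more spread between libraries. Cartpt encodes the CART peptide, a neuropeptide of appetite circuits that is also made in islet cells of diabetic rodents. It stood at 14.9, 28.5 and 26.3 CPM in treated db/db libraries, 15.3, 6.49 and 18.3 CPM in untreated db/db libraries, and 1.58, 1.22 and 0.695 CPM in db/+ libraries. The db/db and db/+ libraries did not overlap, whereas the treated and untreated db/db libraries did. Log2 fold changes were 3.50 ± 0.54 for untreated db/db over db/+ islets (adjusted p = 0.000695) and 4.30 ± 0.54 for treated db/db over db/+ islets (adjusted p = 0.000167). For treated over untreated db/db islets it was 0.80 ± 0.39 (adjusted p = 0.339).

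Vip encodes vasoactive intestinal polypeptide, a transmitter of parasympathetic and enteric neurons. It stood at 11.8, 30.2 and 38.1 CPM in treated db/db libraries, 49.1, 5.1 and 6.76 CPM in untreated db/db libraries, and 0, 0.102 and 0.894 CPM in db/+ libraries. All db/db libraries were above all db/+ libraries, but untreated replicate 1 and treated replicates 2 and 3 were well above the other 3 db/db libraries, and the highest was 9.63 times the lowest. The log2 fold change was 5.88 ± 1.66 for untreated db/db over db/+ islets (adjusted p = 0.02) and 6.28 ± 1.63 for treated db/db over db/+ islets (adjusted p = 0.0137), against 0.40 ± 0.94 for treated over untreated db/db islets (adjusted p = 0.85; 2.17 and 0.309 without untreated replicate 1). Leaving out db/+ replicate 1 (adjusted p = 0.0596) or 2 (0.0593) ended the untreated call, and over all alternatives the adjusted p ran between 3.81e-05 and 0.0606. Without untreated db/db replicate 1 the log2 fold change was 4.12 (adjusted p = 0.0147). Db/+ replicate 3 held 9 of the 10 db/+ reads, and without it the values over db/+ islets were 8.78 (adjusted p = 0.0354) in treated and 8.46 (adjusted p = 0.044) in untreated db/db islets.

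Transcription of Vip is known to respond to cyclic AMP through a cyclic AMP response element, and its part here was not tested. Gast, Cck, Vip and Cartpt were higher in every db/db library than in every db/+ library. Within db/db islets the highest library was 1.34 times the lowest for Cck and 9.63 times for Vip. Of the 5 strongly raised genes the RefSeq promoter table holds these 4, whose promoter sequences are shown. Each is the 250 bases before the annotated start, read 5′ to 3′ on the gene's strand in build GRCm38.p6, with capitals marking the half-site CGTCA or its reverse complement TGACG.
Gast, chr11:100334157-100334406, plus strand: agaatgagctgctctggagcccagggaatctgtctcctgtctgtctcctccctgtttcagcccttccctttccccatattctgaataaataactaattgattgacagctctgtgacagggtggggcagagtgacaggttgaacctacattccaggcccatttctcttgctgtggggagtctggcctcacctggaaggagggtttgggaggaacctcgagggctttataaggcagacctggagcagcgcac
Cck, chr9:121495695-121495944, minus strand: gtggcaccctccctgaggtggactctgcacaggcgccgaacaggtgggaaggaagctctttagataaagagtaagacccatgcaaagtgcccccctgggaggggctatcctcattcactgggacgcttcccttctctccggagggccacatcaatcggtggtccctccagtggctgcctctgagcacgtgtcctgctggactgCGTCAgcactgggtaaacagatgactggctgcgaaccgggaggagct
Vip, chr10:5638968-5639217, plus strand: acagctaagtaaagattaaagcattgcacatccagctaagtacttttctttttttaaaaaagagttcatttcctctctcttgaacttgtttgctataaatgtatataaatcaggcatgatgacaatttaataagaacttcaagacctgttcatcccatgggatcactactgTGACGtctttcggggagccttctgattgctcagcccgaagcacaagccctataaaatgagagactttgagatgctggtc
Cartpt, chr13:99900684-99900933, minus strand: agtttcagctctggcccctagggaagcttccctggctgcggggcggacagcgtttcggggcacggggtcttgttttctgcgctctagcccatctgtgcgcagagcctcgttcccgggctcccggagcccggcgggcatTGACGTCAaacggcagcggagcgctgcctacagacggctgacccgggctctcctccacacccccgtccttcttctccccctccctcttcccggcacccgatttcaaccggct

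Both strands were searched in this window. The half-site CGTCA or TGACG was found 47 bases before the start of Cck, 79 before that of Vip, and 112 and 109 before that of Cartpt, where a pair overlaps to form the full palindrome TGACGTCA. It was not found in the Gast window. Of the 9 genes with an entry in the table, 6 held the half-site (Cck, Nts, Vip, Tac1, Cartpt and Adcyap1), as did 17.8% of all 32851 promoter windows. Adcyap1 has 2 windows and was counted if either matched, whereas the shares of all windows count each window singly. The full palindrome was in the Cartpt window and in 1.55% of all windows. The E-box CACGTG was in the windows of Cck and Tac1 and in 6.02% of all windows. A TATAAA or TTTATA match was in those of Gast, Vip and Adcyap1 and in 12.4% of all windows. Gast and Cck, with the largest fold changes, thus held none of these letter strings in common. A match is a run of letters and not a measured binding site.

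Penk, Gal and Tac1 were expressed at a few CPM or less in every library. Penk encodes the enkephalins, opioid peptides of neurons that some T cells also make. It stood at 0.635, 2.03 and 1.23 CPM in treated db/db libraries, 4.09, 1.51 and 1.99 CPM in untreated db/db libraries, and 0.099, 0.204 and 0.497 CPM in db/+ libraries, which held 59, 108 and 8 reads in all. The db/db libraries did not overlap the db/+ libraries, and untreated replicate 1, the library richest in lymphocyte and acinar markers, was the highest. Treated db/db libraries had more Penk than db/+ libraries but lower lymphocyte marker sums (6.19 to 9.41 against 11.2 to 17 CPM). The part of lymphocytes in the Penk values was not tested. The log2 fold change of Penk was 3.19 ± 0.64 for untreated db/db over db/+ islets (adjusted p = 0.000891), and 2.68 (adjusted p = 0.00272) without untreated replicate 1. For treated db/db over db/+ islets it was 2.25 ± 0.68 (adjusted p = 0.0109). The second call did not survive leaving out db/+ replicate 1 (adjusted p = 0.0522) or 2 (0.0572), the lowest value over alternatives being 0.00429. Without db/+ replicate 3 the values over db/+ islets were 3.01 in treated and 4.03 in untreated db/db islets. For treated over untreated db/db islets the log2 fold change was -0.95 ± 0.48 (adjusted p = 0.33), and -0.42 without untreated replicate 1.

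Gal encodes galanin, which inhibits insulin release. It stood at 0.917, 1.05 and 1.29 CPM in treated db/db libraries, 1.97, 0.882 and 2.14 CPM in untreated db/db libraries, and 0.099, 0.51 and 0.199 CPM in db/+ libraries. The db/db libraries were all above the db/+ libraries, and treated and untreated db/db libraries overlapped. Log2 fold changes were 2.59 ± 0.55 for untreated db/db over db/+ islets (adjusted p = 0.00127), 1.99 ± 0.57 for treated db/db over db/+ islets (adjusted p = 0.00826) and -0.60 ± 0.42 for treated over untreated db/db islets (adjusted p = 0.475). Db/+ replicate 2 held 5 of the 8 db/+ reads, and without it the values over db/+ islets were 2.74 in treated and 3.41 in untreated db/db islets.

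Tac1 encodes substance P and neurokinin A, peptides of sensory neurons. It stood at 1.62, 1.9 and 1.42 CPM in treated db/db libraries, 5.19, 0.882 and 1.28 CPM in untreated db/db libraries, and 0.495, 0.204 and 1.09 CPM in db/+ libraries. Untreated db/db and db/+ libraries overlapped, and untreated replicate 1 alone held 71 of the 103 reads of its group. The log2 fold change for untreated db/db over db/+ islets was 2.00 ± 0.74 (adjusted p = 0.0365), and 0.84 (adjusted p = 0.189) without that replicate. Leaving out db/+ replicate 1 (adjusted p = 0.1), db/+ replicate 2 (0.121) or treated replicate 1 (0.0522) also ended the call, and over alternatives the value ran between 0.00753 and 0.189. For treated db/db over db/+ islets it was 1.44 ± 0.76 (adjusted p = 0.119), and 1.46 (adjusted p = 0.015) without untreated replicate 1. Without db/+ replicate 3 the values over db/+ islets were 2.17 (adjusted p = 0.0757) in treated and 2.81 (adjusted p = 0.0284) in untreated db/db islets. For treated over untreated db/db islets the value was -0.56 ± 0.62 (adjusted p = 0.662), and it turned to 0.61 (adjusted p = 0.665) without untreated replicate 1.

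Npy was the exception, the only one of the 8 that untreated db/db islets had less of, against db/+ islets. It encodes neuropeptide Y, a transmitter of sympathetic neurons that rodent beta cells also make around birth. It stood at 1.48, 6.54 and 7.8 CPM in treated db/db libraries, 9.5, 1.32 and 1.28 CPM in untreated db/db libraries, and 24.2, 32.5 and 18.1 CPM in db/+ libraries. Every db/db library was below every db/+ library, and within db/db islets the same 3 libraries as for Vip were the high ones. The log2 fold change was -2.64 ± 0.90 for untreated db/db over db/+ islets (adjusted p = 0.0388), -2.23 ± 0.87 for treated db/db over db/+ islets (adjusted p = 0.0601) and 0.41 ± 0.92 for treated over untreated db/db islets (adjusted p = 0.84; 2.02 and 0.445 without untreated replicate 1).

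The Npy call depended on single libraries. Its adjusted p passed 0.05 on leaving out db/+ replicate 1 (0.0829), 2 (0.098) or 3 (0.0652), without untreated db/db replicate 2 (0.0913) or 3 (0.0994), and without treated replicate 2 (0.062) or 3 (0.0518). Without untreated db/db replicate 1 the log2 fold change was -4.24 (adjusted p = 0.00279), and that for treated db/db over db/+ islets was -2.22 with an adjusted p = 0.00935. Over all alternatives the adjusted p ranged from 0.00279 to 0.0994 for untreated db/db and from 0.00935 to 0.137 for treated db/db against db/+ islets.

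Nts and Adcyap1 were close to the limit of detection. Nts encodes neurotensin, a peptide of intestinal N cells and neurons. It had 1, 6 and 0 reads in treated db/db libraries, 9, 1 and 3 in untreated db/db libraries and 0, 1 and 0 in db/+ libraries. The ratio of summed, scaled reads was 8.93 for untreated db/db over db/+ islets (exact 95% interval 1.34 to 380) and 4.67 for treated db/db over db/+ islets (0.599 to 210). Without untreated replicate 1, which held 9 of the 13 untreated reads, the first was 4.01 (0.396 to 197). Adcyap1 encodes PACAP, which strongly potentiates insulin secretion. It had 3, 9 and 10 reads in treated db/db libraries, 15, 2 and 1 in untreated db/db libraries and 0, 0 and 1 in db/+ libraries. Its ratio was 12.4 (1.95 to 515) for untreated db/db over db/+ islets and 14.7 (2.37 to 605) for treated db/db over db/+ islets. Untreated replicate 1 held 15 of the 18 untreated reads, and without it the first ratio was 3 (0.241 to 158). These intervals cover counting error of the summed reads only and leave out the spread between libraries. Reads are also not independent molecules. Adcyap1 overlaps the non-coding gene Gm32465 in the GRCm38 annotation, and its transcript rows held 15 to 41 reads in all.

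**Figure D2:**
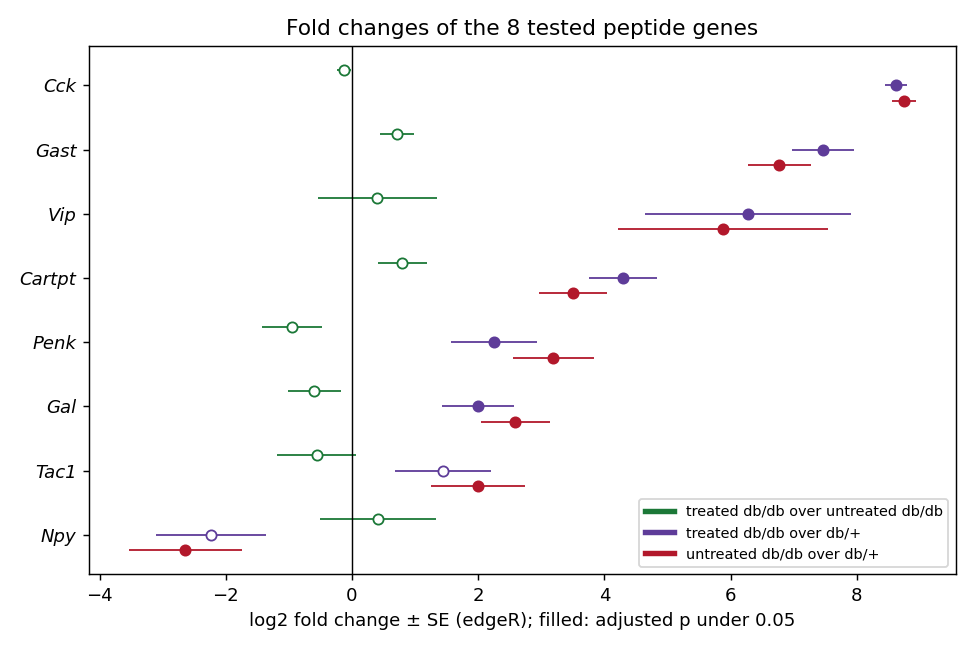
Log2 fold change with its standard error for the 8 tested peptide genes in the 3 comparisons, with filled points for an adjusted p under 0.05. The treated over untreated db/db values lay between -0.95 and 0.80 with 0 called, and the values over db/+ islets were positive for all genes but Npy.

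Per kilobase of transcript the order of the genes differed between db/db and db/+ islets. In treated db/db islets Cck led with 281 ± 36.4 CPM per kilobase, followed by Gast with 171 ± 66.9, Cartpt with 27.8 ± 8.74, Vip with 17.4 ± 8.81 and Npy with 9.32 ± 5.91. In untreated db/db islets the order was the same, with 308 ± 14.4 for Cck, 105 ± 8.19 for Gast, 16 ± 7.35 for Cartpt, 13.3 ± 16.3 for Vip and 7.13 ± 8.36 for Npy. In db/+ islets Npy led with 44 ± 12.8, and the next were Cartpt with 1.40 ± 0.535, Gast with 0.944 ± 0.348 and Cck with 0.709 ± 0.135. Cartpt, Vip and Npy did not differ beyond their spread in untreated db/db islets, nor did Cartpt, Gast and Cck in db/+ islets. Tac1, Gal and Penk lay between 1 and 1.57 CPM per kilobase in treated db/db, between 1.96 and 2.34 in untreated db/db and between 0.206 and 0.569 in db/+ islets. Adcyap1 and Nts were lowest in every group, at or under 0.264. The length used for Cck is 943 bases, whereas its shortest transcript row, with nearly the same reads, has 691 bases.

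The db/db libraries high in Vip, Npy and Adcyap1 were also those with the most reads from genes of cholinergic nerves. Over the 12 nerve markers, 12 were detected in treated db/db, 12 in untreated db/db and 8 in db/+ islets, where Dbh, Chat and Slc5a7 were among those at 0. The list summed to 176 to 195 CPM in treated db/db, 153 to 172 in untreated db/db and 108 to 122 in db/+ libraries, of which Th, Ret and Elavl4, also used by endocrine cells, made up 92.4% to 98.7%. The other 9 markers summed to 3.25, 10.9 and 13.5 CPM in treated db/db libraries, 12.8, 5.73 and 4.77 CPM in untreated db/db libraries, and 1.48, 2.24 and 1.59 CPM in db/+ libraries. Treated replicates 2 and 3 and untreated replicate 1 were thus the highest here too.

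Slc5a7, the choline transporter of cholinergic neurons, had 5, 30 and 41 reads in treated db/db libraries, 33, 5 and 6 in untreated db/db libraries and 0 in each db/+ library. Summed over the treated db/db libraries, that is at least 16.9-fold higher than 3 reads over the db/+ group, a bound that leaves out the spread between libraries. Of the 76 treated reads, 30 and 41 were in replicates 2 and 3, and 33 of the 44 untreated reads were in replicate 1. Prph, the neuronal filament peripherin, had 9, 43 and 52 reads in treated db/db libraries, 39, 16 and 11 in untreated db/db libraries and 2, 3 and 3 in db/+ libraries, with log2 fold changes over db/+ islets of 3.05 ± 0.78 (adjusted p = 0.00512) in treated db/db and 2.48 ± 0.81 (adjusted p = 0.0194) in untreated db/db islets. Leaving out any 1 of the 3 db/+ libraries ended the untreated Prph call (adjusted p = 0.0647, 0.056 and 0.0569 for replicates 1, 2 and 3), as did leaving out untreated replicate 1, which gave 1.73 (adjusted p = 0.0739). Prph was under the filter's level in all db/+ libraries and passed through db/db libraries alone, so the filter partly fixes that difference. Chat, which makes acetylcholine, had at most 6 reads in any library. Cck did not show this split, and lay between 227 and 305 CPM in the 6 db/db libraries. Gast showed it among the treated libraries, where replicates 2 and 3 were the high ones. It hardly showed it among the untreated ones, which lay between 44.5 and 52 CPM. Treated replicate 1 and untreated replicates 2 and 3, lower in nerve markers, were at 43.6 to 48.2 CPM. Of the 12 nerve markers 7 were tested, with 5 called higher in treated and 4 in untreated db/db against db/+ islets, and 0 lower. Of the 7 Schwann cell markers, with Foxd3 at 0 in db/+ islets, 4 were tested. In both db/db groups 2 of these were called higher and 1 lower. Over all tested genes 32.7% and 31.3% were called higher in treated and untreated db/db, and 32.4% and 31.9% lower. The Schwann list summed to 11.3 to 15.6 CPM in treated db/db, 13.3 to 14 in untreated db/db and 16.2 to 21.2 in db/+ libraries. The part of nerve content in the Vip, Npy, Gast, Cck and Adcyap1 values was not tested.

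**Figure D3:**
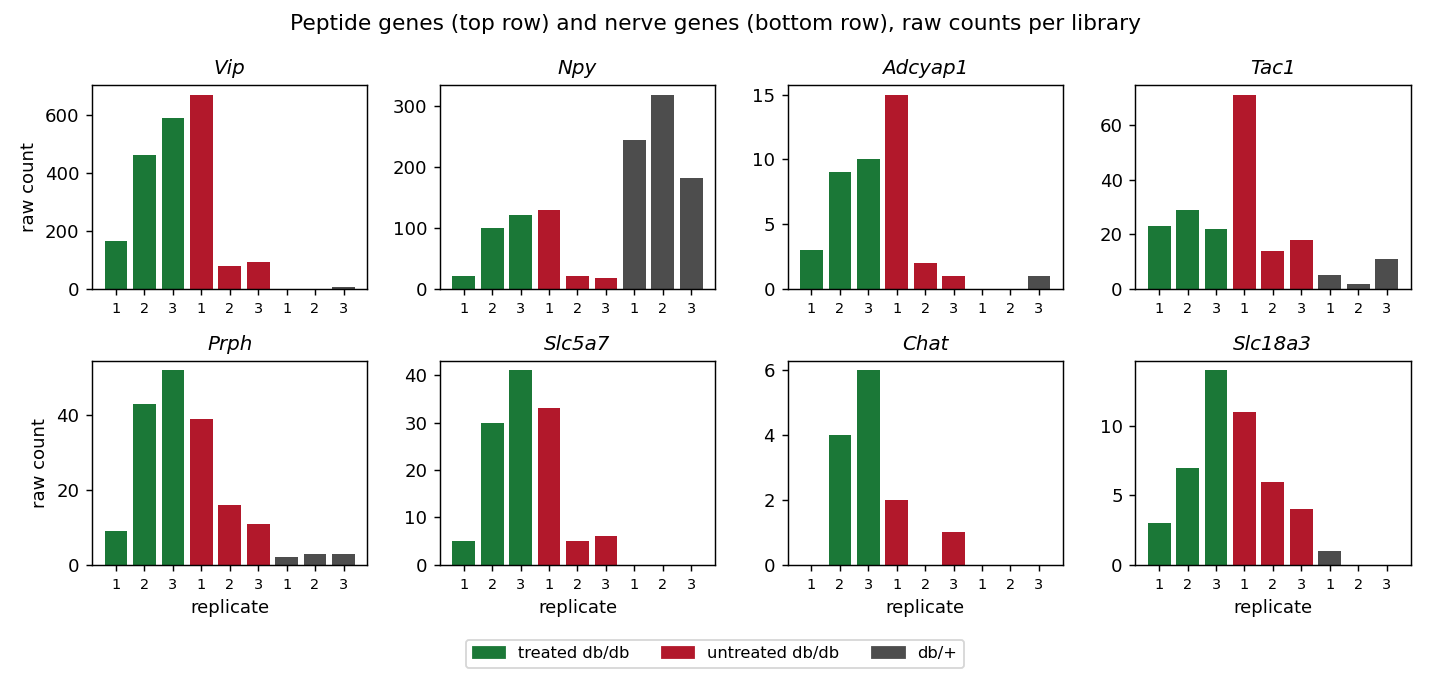
Raw counts per library of 4 peptide genes (top row) and 4 nerve genes (bottom row). Replicates 1 to 3 of treated db/db, untreated db/db and db/+ islets run from left to right. Treated replicates 2 and 3 and untreated replicate 1 were the highest db/db libraries for Vip, Npy, Adcyap1, Prph and Slc5a7; db/+ libraries were high only for Npy.

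Markers of other cells an islet preparation can hold also differed between groups. The 12 lymphocyte markers summed to 6.19 to 9.41 CPM in treated db/db, 34.2 to 260 in untreated db/db and 11.2 to 17 in db/+ libraries, with Cd3g and Cd8a at 0 in treated db/db and Cd3d, Cd3g, Cd8a and Ms4a1 at 0 in db/+ islets. The 9 acinar markers summed to 89.6 to 309 CPM in treated db/db, 210 to 1769 in untreated db/db and 6.93 to 110 in db/+ libraries. The 6 stellate markers summed to 74.4 to 200 CPM in treated db/db, 99 to 320 in untreated db/db and 29.8 to 51.8 in db/+ libraries. For 7 macrophage markers the sums were 144 to 162 CPM in treated db/db, 158 to 200 in untreated db/db and 126 to 131 in db/+ libraries. The 6 duct markers summed to 680 to 964 CPM in treated db/db, 799 to 1515 in untreated db/db and 439 to 549 in db/+ libraries. The 7 endothelial markers summed to 308 to 323 CPM in treated db/db, 323 to 430 in untreated db/db and 516 to 583 in db/+. Against db/+ islets all 7 were called lower in treated and 6 in untreated db/db. Over all tested genes 32.4% and 31.9% were called lower, and 32.7% and 31.3% higher. For lymphocyte, acinar, stellate, macrophage and duct markers, 1, 1, 4, 4 and 1 were called higher in treated db/db. In untreated db/db these were 10, 6, 5, 3 and 1. Of these lists, 2 macrophage markers in both groups and 1 lymphocyte marker in treated db/db were called lower. No acinar, stellate, macrophage, duct or endothelial marker was at 0 in any group. Of 8 intestinal markers, Cdx1 was at 0 in all 9 libraries, Apoa4 was at 0 in treated db/db, and Cdx2 had 1 read in each of treated replicates 2 and 3 and 0 elsewhere, while Vil1 and Lgals4, also used by islet cells, held most of a sum of 139 to 183 CPM in treated db/db, 127 to 159 in untreated db/db and 165 to 188 in db/+ libraries. The part of these cells in the peptide values was not tested.

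The receptors for these peptides were mostly barely expressed. Of 21 receptor genes 6 passed the filter on low counts. In untreated db/db against db/+ islets 3 of the 6 were called higher and 1 lower, with a median log2 fold change of 0.51, and in treated db/db against db/+ islets 5 were called higher and 0 lower, with a median of 0.94. Over all tested genes 63.2% were called in the first comparison and 65.1% in the second, so the untreated count is near that rate. The 5 all had an unadjusted p under 0.05, and DESeq2 made the untreated count 5 higher and 0 lower. The galanin receptor Galr3 stood at 25.4, 21.6 and 24.2 CPM in treated db/db libraries, 15.2, 21.9 and 19.2 CPM in untreated db/db libraries, and 10, 10.2 and 8.34 CPM in db/+ libraries. All db/db libraries were above the db/+ libraries, with log2 fold changes of 1.32 ± 0.15 in treated db/db (adjusted p = 6.76e-06) and 0.98 ± 0.15 in untreated db/db islets (adjusted p = 9.95e-05). Galr1, the other galanin receptor expressed, was called higher in treated db/db islets (0.99 ± 0.21, adjusted p = 0.00136). In untreated db/db islets its log2 fold change was 0.51 (adjusted p = 0.0537). It was called without untreated replicate 1 (0.72, adjusted p = 0.00244) or db/+ replicate 1 (0.68, 0.0398). It moved further from a call without db/+ replicate 3 (0.39, adjusted p = 0.136), untreated replicate 2 (0.45, 0.13) or untreated replicate 3 (0.35, 0.176). The treated over untreated difference of Galr1 was 0.49 (adjusted p = 0.245).

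The PACAP receptor Adcyap1r1 stood at 0.353, 1.31 and 1.35 CPM in treated db/db libraries, 1.68, 0.378 and 1.49 CPM in untreated db/db libraries, and 0.297, 0.306 and 0.0993 CPM in db/+ libraries, with log2 fold changes over db/+ islets of 2.07 ± 0.76 (adjusted p = 0.0294) in treated db/db and 2.28 ± 0.75 (adjusted p = 0.0184) in untreated db/db islets. Leaving out db/+ replicate 3 ended the untreated call (adjusted p = 0.0706), as did leaving out untreated replicate 1 (0.0585) or 3 (0.0514); the lowest value over alternatives was 0.00348. For treated db/db islets the adjusted p was 0.0639, 0.0712 and 0.116 without db/+ replicates 1, 2 and 3, and 0.0776 and 0.083 without treated replicates 2 and 3; the lowest value was 0.00893. Adcyap1r1 was under the filter's level in all db/+ libraries and passed through the db/db libraries alone, so the filter partly fixes its difference. Vipr2, a receptor for VIP and PACAP, had log2 fold changes of 0.89 ± 0.19 (adjusted p = 0.00115) in treated db/db and 0.51 ± 0.19 (adjusted p = 0.0334) in untreated db/db islets. Its untreated call ended without either of db/+ replicates 1 (adjusted p = 0.056) and 2 (0.0675), and without either of untreated replicates 1 (0.0525) and 2 (0.0974), the lowest value being 0.00433. Vipr1, the one receptor called lower, at -0.24 ± 0.09 on the log2 scale in untreated db/db islets (adjusted p = 0.0387), lost its call in all 15 alternatives, with an adjusted p of 0.0573 to 0.407. Of the gastrin and cholecystokinin receptors, Cckbr had 2, 6 and 10 reads in treated db/db, 5, 9 and 6 in untreated db/db and 0, 0 and 1 in db/+ libraries. Its ratio of scaled reads was 12 (exact 95% interval 1.89 to 500) for treated db/db and 13.7 (2.2 to 570) for untreated db/db over db/+ islets. Cckar had 5, 13 and 1 reads in these groups. The Cckbr intervals cover counting error of the summed reads only.

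Among enzymes that mature such peptides more were called higher than lower in db/db islets. Of 11 genes, all tested, 8 were called higher and 1 lower in treated db/db and 7 higher and 1 lower in untreated db/db against db/+ islets, with median log2 fold changes of 0.63 and 0.65, where 32.7% and 31.3% of all tested genes were called higher. Pam, which makes the C-terminal amide that gastrin and cholecystokinin need, averaged 1334 CPM in treated db/db, 1171 in untreated db/db and 351 in db/+ islets, with log2 fold changes over db/+ islets of 1.92 ± 0.12 (adjusted p = 9.16e-08) and 1.74 ± 0.12 (adjusted p = 2.15e-07). Scg5, the chaperone of prohormone convertase 2, had log2 fold changes of 1.80 ± 0.17 and 1.25 ± 0.17, and Pcsk1, prohormone convertase 1, 1.23 ± 0.19 and 0.91 ± 0.19, in treated and untreated db/db islets. Tpst1, a tyrosine sulfotransferase of the kind that sulfates cholecystokinin, had 0.63 ± 0.11 and 0.62 ± 0.11. The one gene called lower was Pcsk1n, which encodes proSAAS, an inhibitor of prohormone convertase 1, with -0.73 ± 0.12 (adjusted p = 0.000128) and -0.98 ± 0.12 (adjusted p = 1.46e-05). None of the 11 was called between treated and untreated db/db islets, where 1 had an unadjusted p under 0.05 and DESeq2 called 1 higher, Scg5.

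The other peptide precursor genes were called in either direction about as often as all tested genes (65.1% in treated and 63.2% in untreated db/db against db/+ islets). Of 52 listed, 17 were tested; 4 were called higher and 9 lower in treated db/db, and 4 higher and 8 lower in untreated db/db against db/+ islets, with median log2 fold changes of -0.56 and -0.72. Pdyn, which encodes the dynorphin opioid peptides, stood at 630, 718 and 643 CPM in treated db/db libraries, 563, 510 and 616 CPM in untreated db/db libraries, and 92.6, 54 and 44.1 CPM in db/+ libraries. It was thus well expressed in every group and higher in all db/db libraries, with log2 fold changes of 3.38 ± 0.24 in treated db/db (adjusted p = 9.92e-07) and 3.15 ± 0.24 in untreated db/db islets (adjusted p = 1.95e-06). Calca, the gene of calcitonin and of the sensory peptide CGRP, had 2.80 ± 0.50 (adjusted p = 0.00051) and 2.00 ± 0.52 (adjusted p = 0.00557). It stood at 2.4, 6.99 and 9.48 CPM in treated and 4.82, 2.71 and 3.42 CPM in untreated db/db libraries. Its highest db/db libraries were thus the same as for Vip and Npy. The part of nerve content in the Calca values was not tested. Among those called lower were Npff (-3.78 ± 0.38 and -3.17 ± 0.36), a neuropeptide that modulates opioid action, and Gnrh1 (-3.55 ± 0.36 and -3.64 ± 0.37), the gonadotropin-releasing hormone gene. Calca passed the filter through the db/db libraries, and Gnrh1, under its level in all db/db libraries, through the db/+ libraries alone. The filter thus partly fixes those differences. Apln, the peptide apelin, had -1.45 ± 0.26 and -2.06 ± 0.27 in treated and untreated db/db islets.

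Of 19 transcription factor genes of islet and gut endocrine cells, 17 were tested; 6 were called higher and 6 lower in treated db/db, and 5 higher and 6 lower in untreated db/db against db/+ islets, with medians of -0.08 and -0.25, near the shares of all tested genes called (65.1% and 63.2%). Neurog3, which specifies endocrine progenitors in pancreas and gut, stood at 14.7, 22.9 and 11.2 CPM in treated db/db libraries, 19.8, 21.7 and 14.2 CPM in untreated db/db libraries, and 1.68, 2.75 and 3.67 CPM in db/+ libraries. All db/db libraries were above the db/+ libraries, with log2 fold changes of 2.59 ± 0.34 in treated db/db (adjusted p = 9.77e-05) and 2.78 ± 0.34 in untreated db/db islets (adjusted p = 6.96e-05). Pax6 (-1.13 ± 0.12 and -1.43 ± 0.12) and Isl1 (-1.15 ± 0.11 and -1.24 ± 0.11), factors of all islet endocrine cells, were called lower in both.

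**Figure D4:**
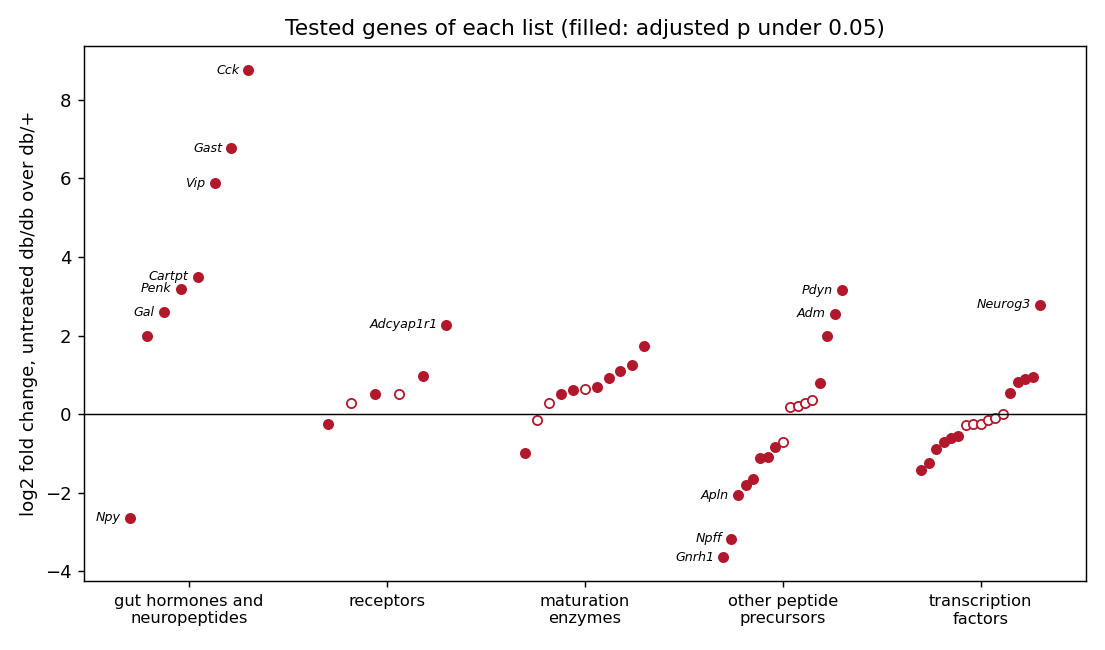
Log2 fold change of untreated db/db over db/+ islets for the tested genes of each list, with filled points for an adjusted p under 0.05 and names where the change exceeds 2 in size. The peptide genes of this report reach 8.75 (Cck), whereas the receptors and maturation enzymes lay between -0.98 (Pcsk1n) and 2.28 (Adcyap1r1).

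The genes whose pattern over the 9 libraries was most like that of each peptide gene were found as those with the smallest SD of the log2 ratio to it, a description with no test, in which the difference between db/db and db/+ islets dominates. For Gast these were Csn3, a milk casein gene (SD 0.52), Tm4sf20 (0.55) and Vstm2a (0.61). For Cck they were Vstm2a (0.66), Csn3 (0.69) and Aldh1a3, a retinoic acid-forming enzyme (0.73). Gast and Cck thus shared Csn3 and Vstm2a. For Cartpt they were Klhl1 (0.52), Pon3 (0.53) and Pdyn (0.53), and for Gal Flicr (0.32), Tlr8 (0.32) and Sulf2 (0.36). Penk was most like Col12a1, a collagen (0.38), C230057M02Rik (0.43) and Bcl11a, a transcription factor of lymphocytes and neurons (0.44), and Tac1 was most like the replication gene Mcm5 (0.45), Gm6877 (0.49) and Corin (0.49). Npy and Vip had no close match: the nearest were Sag (0.80), Gm38629 (0.82) and LOC115487771 (0.86) for Npy, and Gm39952 (1.14), Tm4sf20 (1.19) and Tgm3 (1.20) for Vip.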

How the data were processed

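Deposited values were raw counts per RefSeq transcript for 139023 transcript rows, per the file headers. The submitters' processing notes name cutadapt 1.9.1, HISAT2 2.2.1, featureCounts 2.0.0 and build GRCm39; libraries came from a directional kit, per the labels' protocols, while the sources used here leave the strand setting and the handling of multiply aligned reads unstated. The deposited Length column, another value in bases per the file headers, was used for levels per kilobase. Transcripts of a gene shared their reads, so each gene was its row of highest total.

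Counts were tested in R 4.3.3 with edgeR 4.0.16 (filterByExpr by group, TMM, robust quasi-likelihood F-test, 9 libraries, 3 group means), with the tests checked on simulated data. DESeq2 1.42.0, upper-quartile factors, no filter, summed transcript rows, the compared groups alone, a replicate block and leaving out each library were alternatives. Standard errors are the fold change divided by the square root of F. Tables and figures used Python 3.11.15 with pandas 2.3.3, scipy 1.17.1 and matplotlib 3.10.9. Reads of a group at 0 were bounded by 3 reads over the group. Likeness used log2 CPM with a prior count of 2. Genes named are all 10 peptide genes, up to 4 called genes per list and direction by p, receptors beside their ligands, and the 3 genes most like each peptide gene. The genes and lists were chosen with earlier results of these data known.

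Promoters are RefSeq's for GRCm38.p6, of which 9 of the 10 genes had an entry. Depth limits the low genes: 1 read decides values under about 0.1 CPM. The values of 1 nerve marker are not reported here.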

Additional observations from a re-analysis of the deposited data

How the results depend on the processing

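Over 15 alternatives and 24 log2 fold changes of the peptide genes, 331 of 359 values kept their side of the threshold, 21 lost the call, 7 gained one and 0 called values changed sign. Among uncalled values of treated over untreated db/db islets the sign changed for Npy (-0.01 to 2.02), Vip (-0.06 to 2.17) and Tac1 (-0.96 to 0.61), each with its highest value without untreated db/db replicate 1. The Cck and Gast calls against db/+ islets held in all 15. With upper-quartile factors all log2 fold changes of untreated db/db over db/+ islets moved by a median of 0.106. Peptide genes called lower in untreated db/db against db/+ islets (1, Npy) became 0 with no filter on low counts, with only the 2 groups compared and with the replicate block, and 0 to 1 when 1 library was left out. In treated db/db against db/+ islets 0 became 1 with DESeq2, with summed transcript rows and with only the 2 groups compared, and 0 to 1 when 1 library was left out. In treated against untreated db/db islets the count of peptide genes called higher was 0 to 1 when 1 library was left out, the 1 being Gast. Here the counts over all genes, 1 higher and 30 lower, moved most: 135 and 504 with DESeq2, 12 and 215 with no filter, 0 and 9 with summed rows, 0 and 0 with only the 2 groups compared, 0 higher with upper-quartile factors, 126 lower with the replicate block, and 0 to 68 higher and 6 to 370 lower when 1 library was left out (68 and 370 without untreated db/db replicate 2). Receptor genes called higher in untreated db/db against db/+ islets became 5 with DESeq2 and upper-quartile factors, 8 with no filter and 7 with summed rows and 5 without db/+ replicate 1, against 3. Other peptide precursors called higher became 7 with no filter, against 4. The cause was not tested.

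Replicate numbers are shared between groups, but nothing says that they pair libraries: deviations from the group means correlated by -0.425 to 0.0568 between libraries of the same number. With the replicate block the Npy (adjusted p = 0.0885) and Vip (0.0606) calls in untreated db/db against db/+ islets were lost and 6 peptide genes were called higher in place of 7.

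Depth limits all of the genes but Npy and Cartpt in db/+ islets, where they had 1 to 20 reads over the 3 libraries. Ratios of Nts, Adcyap1 and Cckar without untreated db/db replicate 1 were chosen after seeing the data; for Cckar the ratio of 8.93 became 5.01 (0.56 to 237).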
